A study of Mus musculus with 6 samples.

Results

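Kcnk3, Otop1, Letmd1, Eva1a, Cpn2, Pm20d1, Epsti1 and Slc27a2 were grouped as brown-fat-enriched genes outside the core heat-producing machinery around the uncoupling protein Ucp1. For Eva1a that description is uncertain, since the brown-fat marker once called Eva1 is Mpzl2. The 8 genes were taken by symbol, out of 37620 gene identifiers, and each matched 1 Ensembl identifier. They were followed in RNA sequencing libraries of mature brown fat from C57BL/6 mice 6 weeks old. There were 3 libraries labelled as PHOSPHO1 knockout and 3 labelled wild type. Each library came from a pool of 3 mice, and the cells were the floating layer left after collagenase digestion and a spin. The labels give the genotype but neither the allele of the knockout nor the cell types in which the gene was deleted.

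Brown adipocytes burn fatty acids and release the energy as heat, mainly through Ucp1 in the inner mitochondrial membrane. Beside this machinery they carry ion channels that set the membrane potential, proteins that support the mitochondria, enzymes that shape the lipid supply and secreted factors that act on other cells. The 8 genes are spread over these roles. PHOSPHO1 is a phosphatase of phosphocholine and phosphoethanolamine, and the comparison asks whether transcript levels differ between brown fat of mice with the knockout label and brown fat of wild-type mice.

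Library totals ranged from 10576800 to 14239307 counts. The share of counts from the mitochondrial genome was 39.1%, 54.3% and 56.5% in knockout-labelled libraries 1, 2 and 3, against 40.7%, 39.3% and 54.3% in wild-type libraries 1, 2 and 3. Both groups thus held libraries with a low and libraries with a high mitochondrial share. Phospho1 (ENSMUSG00000050860, chromosome 11), the targeted gene, had 18, 15 and 17 counts in the knockout-labelled libraries, against 13, 5 and 5 in the wild-type libraries. These few counts were not lower in the libraries with the knockout label (log2 fold change 1.53, SE 0.46, edgeR adjusted p = 0.056). By the annotation on GRCm38, 1818 of the 2029 exonic bases of Phospho1 are shared with Zfp652 on the same strand, and 1708 with Abi3 on the opposite strand. The counts therefore do not check the labels, and the libraries are called knockout-labelled throughout.

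The cells carried the transcripts of brown adipocytes in both groups. Levels within a gene are given in CPM, counts scaled to library sizes that were adjusted by the trimmed mean of M-values (TMM), with the SD over 3 libraries. Ucp1 averaged 4196 ± 588 CPM in knockout-labelled and 2664 ± 545 CPM in wild-type libraries (log2 fold change 0.66, edgeR adjusted p = 0.113). Adipoq, an adipocyte hormone, averaged 2761 ± 70.1 and 2457 ± 527 CPM (SD, n = 3 each). Liver transcripts were near 0. Alb, the main liver transcript, had 1, 1 and 0 counts in knockout-labelled libraries, against 11, 7 and 12 in wild-type libraries, and was lower in the fit without a count filter (log2 fold change -3.41, edgeR adjusted p = 0.016). Ttr, Cyp3a11 and Tat had 0 counts in every library, and the summed level of the 8 liver markers, of which 5 had any counts, was 1.68 to 2.76 CPM in knockout-labelled and 1.18 to 1.97 CPM in wild-type libraries. In knockout-labelled libraries most of that sum was Apoa2, at 1.59 to 2.76 CPM. In wild-type libraries Apoa2 had 0.451 to 1.09 CPM and Alb 0.478 to 1.08 CPM. Without Apoa2 the sum was 0 to 0.0884 CPM in knockout-labelled and 0.614 to 1.08 CPM in wild-type libraries. These values stand beside Cpn2, Slc27a2 and Kng2, which the liver also expresses, and their part in those levels was not tested.

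The genes fell into a wide range of levels. Between genes, levels are compared in TPM, which divides the counts by transcript length before scaling to the library. In these values, based on the longest annotated transcript, Letmd1 was the highest of the 8 genes and Epsti1 the lowest in every library. Letmd1 averaged 139 ± 35.0 TPM in knockout-labelled and 126 ± 34.6 TPM in wild-type libraries, above 95% to 96.1% of the tested genes. Slc27a2 came next, with 56.2 ± 17.4 TPM and 72.2 ± 9.75 TPM. Otop1 had 41.6 ± 4.76 TPM in knockout-labelled and 44.5 ± 4.85 TPM in wild-type libraries. Kcnk3 followed with 21.7 ± 2.45 and 30.6 ± 8.52 TPM. These 4 genes were all well inside the upper part of the tested genes, with Kcnk3 above 76.8% to 86.0% of them.

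The other genes were of middle or low level. Eva1a had 8.86 ± 5.43 TPM in knockout-labelled and 7.87 ± 2.51 TPM in wild-type libraries. Cpn2 had 4.79 ± 1.45 and 6.27 ± 0.694 TPM. Pm20d1 had 2.24 ± 0.657 and 3.09 ± 0.407 TPM, and Epsti1 0.383 ± 0.149 and 0.706 ± 0.180 TPM. Within the knockout-labelled libraries the ranges of Slc27a2 and Otop1 overlapped, as did those of Eva1a and Cpn2, and within the wild-type libraries only those of Eva1a and Cpn2 overlapped among neighbours in this order. The order depends on the transcript chosen. With the median transcript length Pm20d1, whose annotated transcripts run from 152 to 6900 bases, had 8.23 TPM in knockout-labelled and 10.6 TPM in wild-type libraries, above Cpn2 with 3.47 and 4.25 TPM, and in wild-type library 3 Slc27a2 stood above Letmd1. By that length Kcnk3 stood above Otop1 in every wild-type library (means 36.4 and 30.3 TPM). In every knockout-labelled library it stood below Otop1 (means 27.3 and 30.0 TPM). TPM values were not used to compare the groups, since they carry no scaling between libraries.

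Letmd1 and Cpn2 serve to show how unlike the sequences upstream of these genes are. The 250 bases before the annotated start were read from RefSeq (GRCm38.p6), which held a promoter entry for 6 of the 8 genes and none used here for Kcnk3 and Pm20d1. Capitals mark AGGTCA, the core element of many nuclear receptors, or TGACCT, the same element on the opposite strand. The Letmd1 window lies at chr15:100468761-100469010 on the plus strand and the Cpn2 window at chr16:30267533-30267782 on the minus strand, both printed 5′ to 3′ along the gene.
Letmd1: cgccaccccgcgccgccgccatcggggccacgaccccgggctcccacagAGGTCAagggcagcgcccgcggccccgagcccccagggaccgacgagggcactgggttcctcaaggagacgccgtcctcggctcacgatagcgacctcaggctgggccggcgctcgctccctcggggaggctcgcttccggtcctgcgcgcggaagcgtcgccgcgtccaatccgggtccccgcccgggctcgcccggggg
Cpn2: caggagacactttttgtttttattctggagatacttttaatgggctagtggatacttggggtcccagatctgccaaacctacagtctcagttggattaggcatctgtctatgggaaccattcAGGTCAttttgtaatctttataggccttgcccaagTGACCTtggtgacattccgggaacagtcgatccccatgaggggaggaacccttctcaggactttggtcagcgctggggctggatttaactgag

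The Letmd1 window was 77.6% G and C and held 37 CpG pairs, whereas the Cpn2 window was 47.6% G and C and held 3. Over all promoters the median was 52.4% and 6.00 CpG pairs. Otop1 (70.0%), Eva1a (65.2%) and Slc27a2 (64.0%) were above that median and Epsti1 (48.4%) below it. In 32851 RefSeq promoters of 300 bases, from 250 before to 50 after the start, AGGTCA was found on either strand in 16.3%, and among the 6 genes in 4, namely Letmd1, Cpn2, Slc27a2 and Epsti1. That element was added after longer motifs had been searched. On both strands, TGACGTCA (the cAMP response element, in 1.79% of promoters) and TCAAGGTCA (the estrogen-related receptor element, 0.423%) had no match in any of the 6 windows. The same held for a nuclear receptor direct repeat (in 0.0396% of promoters), an EBF element (0.904%) and the interferon-stimulated response element (3.44%). These letters overlap, since TCAAGGTCA contains AGGTCA.

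None of the 8 genes passed the threshold between the groups. Of the 7 genes with enough counts to be tested, 0 were higher and 0 were lower in knockout-labelled libraries (edgeR quasi-likelihood test, adjusted p under 0.05). Among all 12068 tested genes, 1.63% were called higher and 7.52% lower, 9.16% in all. At an unadjusted p under 0.05 there was 1 of the 7, Letmd1, against 30.8% of all tested genes in either direction and 12.3% higher. DESeq2 and limma-voom also called 0 of the 7, beside 15.7% and 7.39% of all genes. The median log2 fold change was 0.04 over the 7 genes and 0.03 over all tested genes, and 5 of the 7 had a smaller change in size than the median gene, 0.48. Because these are bulk libraries, fewer cells of a type and less RNA per cell cannot be told apart. Nothing in the labels says more about the independence of the libraries than that each is a pool of 3 mice, so the p-values measure the spread between such pools.

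**Figure D1:**
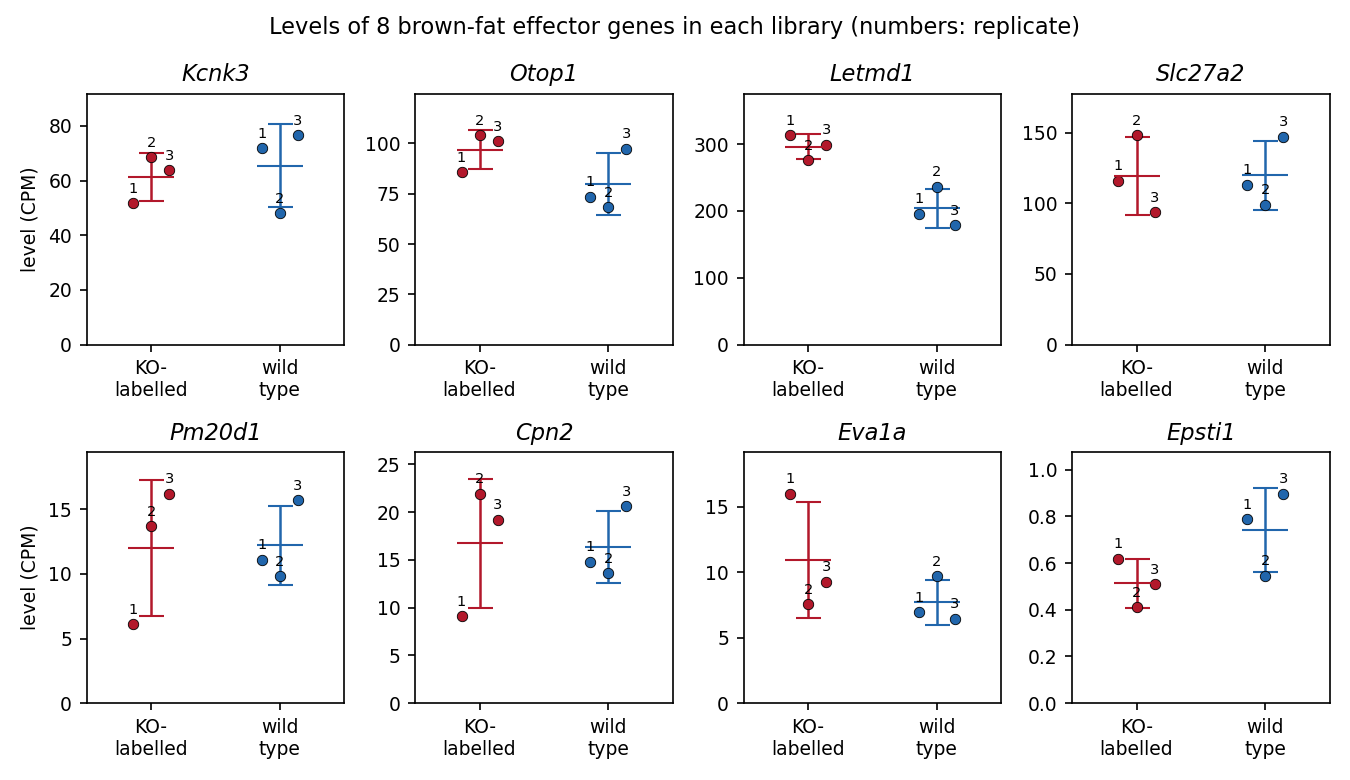
Levels in CPM of the 8 genes in each library, with knockout-labelled libraries on the left and wild-type libraries on the right of each panel; points carry the replicate number, and bars give the mean and SD of 3 libraries. In the Letmd1 panel the knockout-labelled libraries, 276 to 313 CPM, lie above the wild-type libraries, 179 to 236 CPM, and in the other panels the groups overlap.

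The membrane ion channels come first. Kcnk3 (ENSMUSG00000049265, chromosome 5) encodes a potassium leak channel of the tandem-pore family, which holds the membrane potential of the adipocyte. It had 51.7, 68.6 and 63.7 CPM in knockout-labelled libraries 1, 2 and 3, against 71.7, 48.1 and 76.5 CPM in wild-type libraries 1, 2 and 3. The lowest value belonged to a wild-type library and so did the 2 highest, and the groups overlapped over most of their range. Mean levels were 61.3 ± 8.66 and 65.4 ± 15.2 CPM, and the fitted log2 fold change was -0.09 (SE 0.25, 95% interval -0.63 to 0.45, edgeR adjusted p = 0.815), a fold of 0.645 to 1.36. An antisense transcript, Gm9899, covers 229 of the 3976 exonic bases of Kcnk3, and the strand setting of the counting is not given in the sources used here.

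Otop1 (ENSMUSG00000051596, chromosome 5) encodes otopetrin, a proton channel of the plasma membrane. It had 85.7, 104 and 101 CPM in knockout-labelled libraries, against 73.6, 68.2 and 97.3 CPM in wild-type libraries. In 2 of the 3 knockout-labelled libraries it was above every wild-type library, and wild-type library 3 lay among the knockout-labelled ones. The means were 97.2 ± 10 and 79.7 ± 15.5 CPM, with a log2 fold change of 0.29 (SE 0.23, 95% interval -0.21 to 0.79, edgeR adjusted p = 0.402). That interval runs from a fold of 0.862 to 1.73.

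Letmd1 (ENSMUSG00000037353, chromosome 15), a mitochondrial inner membrane protein with a LETM domain that brown fat needs for thermogenesis in mice, was the gene with the clearest separation. It had 313, 276 and 299 CPM in knockout-labelled libraries, against 196, 236 and 179 CPM in wild-type libraries. Every knockout-labelled library was above every wild-type library, which held for 1 of the 7 tested genes and for 15.8% of all tested genes. The reverse order, without overlap, held for 0 of the 7 and for 19.6% of all. The means were 296 ± 18.3 and 204 ± 29.5 CPM. The log2 fold change was 0.54 (SE 0.22, 95% interval 0.06 to 1.02), a fold of 1.45 with an interval from 1.04 to 2.03. The unadjusted p was 0.031 and the edgeR adjusted p 0.125, so the difference did not pass the threshold. It was 0.27 with total counts only, with an adjusted p of 0.639.

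Slc27a2 (ENSMUSG00000027359, chromosome 2) encodes a very long-chain acyl-CoA synthetase that also takes up fatty acids. It had 116, 148 and 93.5 CPM in knockout-labelled libraries, against 113, 99.0 and 147 CPM in wild-type libraries. The highest and the lowest values both belonged to knockout-labelled libraries. The means were 119 ± 27.2 and 120 ± 24.8 CPM, and the log2 fold change was -0.01 (SE 0.25, 95% interval -0.56 to 0.54, edgeR adjusted p = 0.988). A change beyond a fold of 0.680 to 1.46 lay outside this interval. Gm26697, an antisense gene over 419 of its 3754 exonic bases, was not analysed here.

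The secreted and extracellular proteins had lower counts than the genes above, and a wider spread among the knockout-labelled libraries. Pm20d1 (ENSMUSG00000042251, chromosome 1) encodes a secreted enzyme that joins fatty acids to amino acids and also splits the products, N-acyl amino acids, which uncouple respiration. It had 6.10, 13.7 and 16.2 CPM in knockout-labelled libraries, against 11.1, 9.83 and 15.7 CPM in wild-type libraries. Knockout-labelled library 1 was the lowest of the 6 and knockout-labelled library 3 the highest. The means were 12 ± 5.27 and 12.2 ± 3.09 CPM, with a log2 fold change of -0.02 (SE 0.35, 95% interval -0.79 to 0.75, edgeR adjusted p = 0.970).

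Cpn2 (ENSMUSG00000023176, chromosome 16) encodes the regulatory subunit of carboxypeptidase N, a blood enzyme that trims kinins and complement peptides. It had 9.11, 21.9 and 19.2 CPM in knockout-labelled libraries, against 14.8, 13.6 and 20.6 CPM in wild-type libraries. Knockout-labelled library 1 was again the lowest, and knockout-labelled library 2 the highest. The means were 16.7 ± 6.74 and 16.3 ± 3.73 CPM, and the log2 fold change was 0.04 (SE 0.33, 95% interval -0.68 to 0.76, edgeR adjusted p = 0.946). For Pm20d1 and Cpn2 the coefficient of variation in knockout-labelled libraries was 43.9% and 40.3%, against 25.3% and 22.9% in wild-type libraries. For Eva1a, which is not secreted, it was 40.8% in knockout-labelled and 22.7% in wild-type libraries, and for Kcnk3 14.1% and 23.2%.

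Eva1a (ENSMUSG00000035104, chromosome 6) encodes a membrane protein of the endoplasmic reticulum and lysosome that takes part in autophagy. It had 16.0, 7.55 and 9.29 CPM in knockout-labelled libraries, against 6.94, 9.69 and 6.46 CPM in wild-type libraries. Knockout-labelled library 1 stood above the rest, and the other 2 lay within the wild-type range. The means were 10.9 ± 4.47 and 7.70 ± 1.74 CPM, with a log2 fold change of 0.51 (SE 0.33, 95% interval -0.21 to 1.22, edgeR adjusted p = 0.305). Without knockout-labelled library 1 the log2 fold change of Eva1a was 0.13. Eva1a is not the brown-fat marker once called Eva1, which is Mpzl2, a cell adhesion protein. Mpzl2 had 56.4 ± 4.35 CPM in knockout-labelled and 50.1 ± 7.97 CPM in wild-type libraries (log2 fold change 0.17, edgeR adjusted p = 0.618).

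Epsti1 (ENSMUSG00000022014, chromosome 14), an interferon-induced gene that was described as a marker of classical brown fat, had hardly any counts here. The knockout-labelled libraries held 7, 5 and 5 counts and the wild-type libraries 14, 8 and 10, or 17 and 32 in all, whereas the lowest count of any other of the 8 genes in a library was 69. The means were 0.513 ± 0.105 and 0.744 ± 0.180 CPM, and the groups overlapped. It did not reach the minimum counts for the test. Without that filter its log2 fold change was -0.58 (edgeR adjusted p = 0.575), and no difference was detected.

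**Figure D2:**
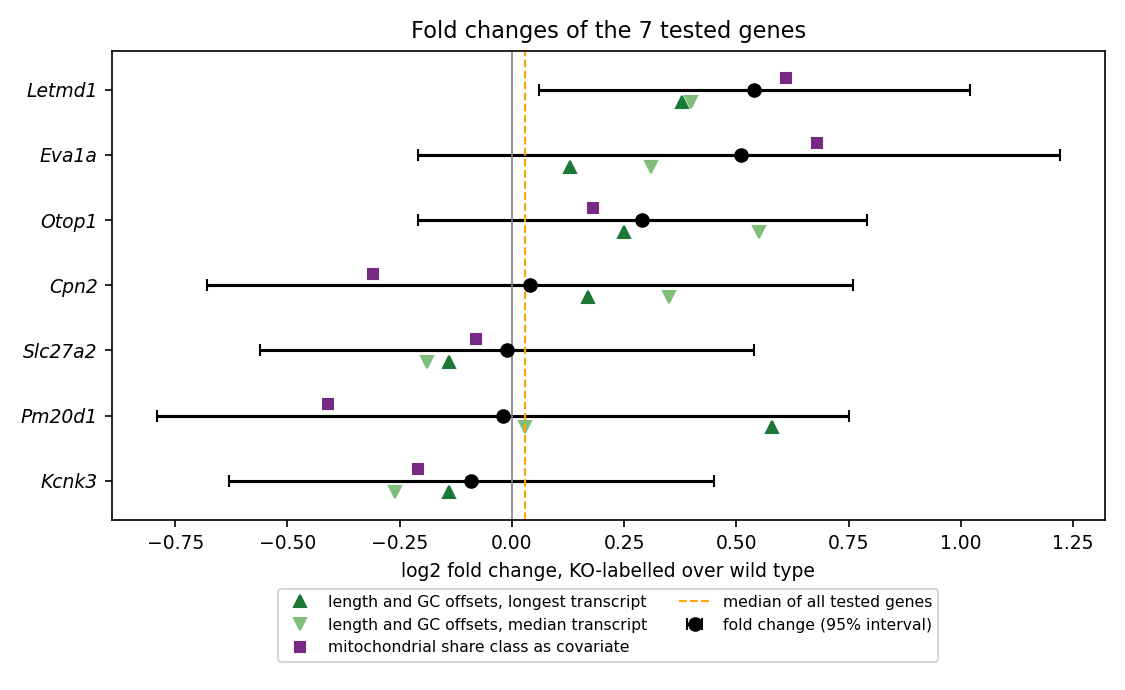
Log2 fold changes of the 7 tested genes, knockout-labelled over wild type; black points and bars are the estimate and its 95% interval, triangles are the values with length and GC offsets, squares those with the class of mitochondrial share as a covariate, and the dashed line is the median of all tested genes, 0.03. Of the black intervals, that of Letmd1, 0.06 to 1.02, lies above 0.

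The libraries differed in how counts depended on transcript length. The slope on log2 transcript length of each gene's deviation from its mean log2 level was -0.238, -0.0932 and -0.249 in knockout-labelled libraries, against 0.306, -0.0255 and 0.300 in wild-type libraries. With offsets for length and GC, 1 of the 12068 genes was called, or 0.00829%, and 0 of the 7 genes, with 23.1% of all tested genes at an unadjusted p under 0.05. Letmd1 then had a log2 fold change of 0.38 (edgeR adjusted p = 0.255), Otop1 0.25 (0.457) and Eva1a 0.13 (0.811). With the median transcript Letmd1 had 0.40 (0.240), Otop1 0.55 (0.109) and Eva1a 0.31 (0.549). Pm20d1 had 0.58 with its longest transcript (adjusted p = 0.300) and 0.03 with its median transcript (0.960). Among the 7, Pm20d1 is thus the gene whose value rests most on which transcript is taken. The part of the length trend in these values was not tested.

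A pattern between libraries that crossed the group labels involved the mitochondrial share. Knockout-labelled libraries 2 and 3 and wild-type library 3 had shares of 54.3% to 56.5%, and the other libraries 39.1% to 40.7%. Otop1, Cpn2 and Pm20d1, 3 of the 7 tested genes, were higher in all 3 libraries with the high share than in all 3 with the low share, which held for 7.78% of all tested genes. None of the 7 was lower in all 3, against 6.05% of all. Letmd1 did not follow that division. The high-share class held 2 knockout-labelled libraries and 1 wild-type library, and the low-share class 1 and 2. Each difference within a class thus rests on 1 library on one side. These classes were formed after seeing the data and use the same 6 libraries as the group comparison. Within the libraries of high share the difference in mean log2 CPM of Letmd1, knockout-labelled minus wild type, was 0.68, and within those of low share it was 0.54. For Cpn2 it was -0.00 and -0.63, for Pm20d1 -0.07 and -0.76, and for Otop1 0.08 and 0.27. For Kcnk3 it was -0.21 and -0.18, for Eva1a 0.37 and 0.95, and for Slc27a2 -0.32 and 0.14.

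With the class of share as a covariate, an alternative chosen after seeing the data, 23.0% of all tested genes were called and again 0 of the 7. Letmd1 came nearest, with a log2 fold change of 0.61 and an edgeR adjusted p of 0.058, followed by Eva1a with 0.68 and 0.083. Cpn2 had -0.31 (0.374) and Pm20d1 -0.41 (0.273). The part of the mitochondrial share in the group values was not tested.

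**Figure D3:**
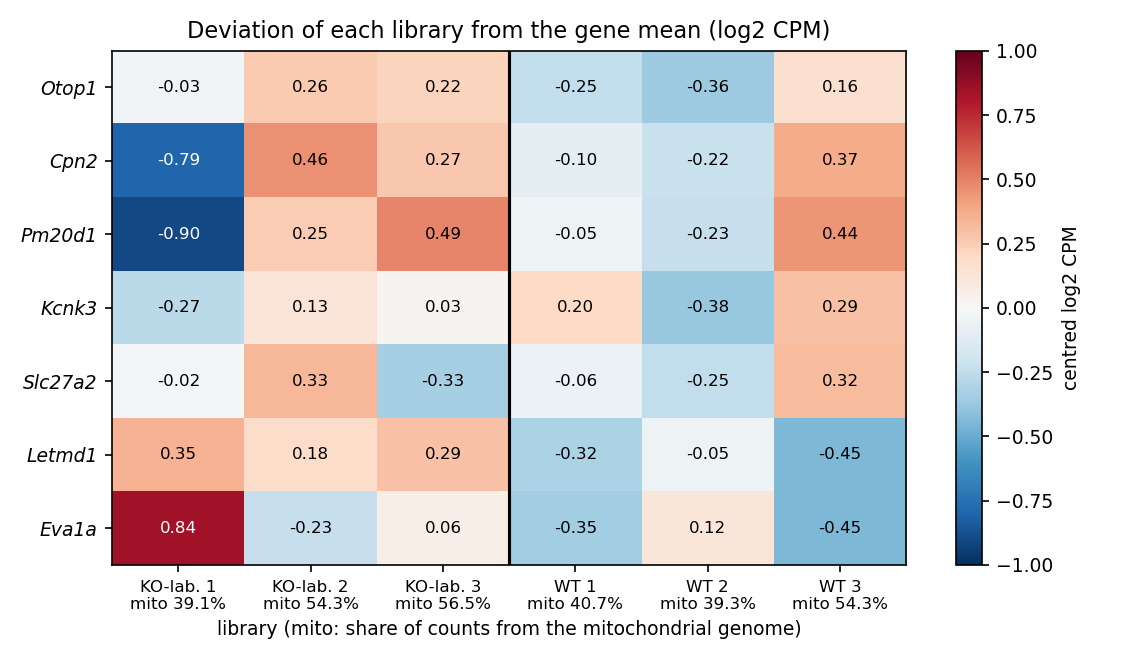
Deviation of each library from the gene's mean over the 6 libraries, in log2 CPM, for the 7 tested genes, with knockout-labelled libraries left of the line and wild-type libraries right of it; the share of counts from the mitochondrial genome stands under each library. Cpn2 and Pm20d1 have their lowest values, -0.79 and -0.90, in knockout-labelled library 1, where Eva1a has its highest, 0.84.

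Cpn2 and Pm20d1 had the most similar pattern over the 6 libraries of the 21 pairs among the 7 genes. The root-mean-square difference of their centred log2 CPM was 0.137, while that of Eva1a and Pm20d1, the most unlike pair, was 0.860. Kcnk3 lay at 0.228 from Slc27a2 and at 0.233 from Otop1, and Letmd1 at 0.283 from Eva1a. These distances describe 6 libraries that share their depth and mitochondrial share between genes.

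By the same measure, the genes nearest to each were listed among 10765 tested genes with a mean of at least 1 CPM. The median distance over this pool ran from 0.462 for Otop1 to 0.634 for Pm20d1. Kcnk3 was nearest to Ppp1r37 (0.046) and Med1 (0.063), and Otop1 to Hdac5 (0.047) and Strn4 (0.056). Letmd1 was nearest to Ppp1r8 (0.041) and Atp5a1 (0.047), a subunit of mitochondrial ATP synthase. Eva1a was nearest to Yars2 (0.078) and Etfbkmt (0.080), both of which encode mitochondrial enzymes. For Cpn2 they were Cog1 (0.063) and Hectd3 (0.089), for Pm20d1 Mark2 (0.081) and Msl1 (0.096), and for Slc27a2 Dusp26 (0.074) and Mks1 (0.082). The share of mitochondrial genes in the pool was not computed, so the mitochondrial neighbours of Letmd1 and Eva1a have no background to be read against. With total counts in place of TMM scaling, Mks1 moved to place 25 for Slc27a2, Dusp26 to place 8 and Med1 to place 6 for Kcnk3, and the other genes stayed within the 5 nearest.

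**Figure D4:**
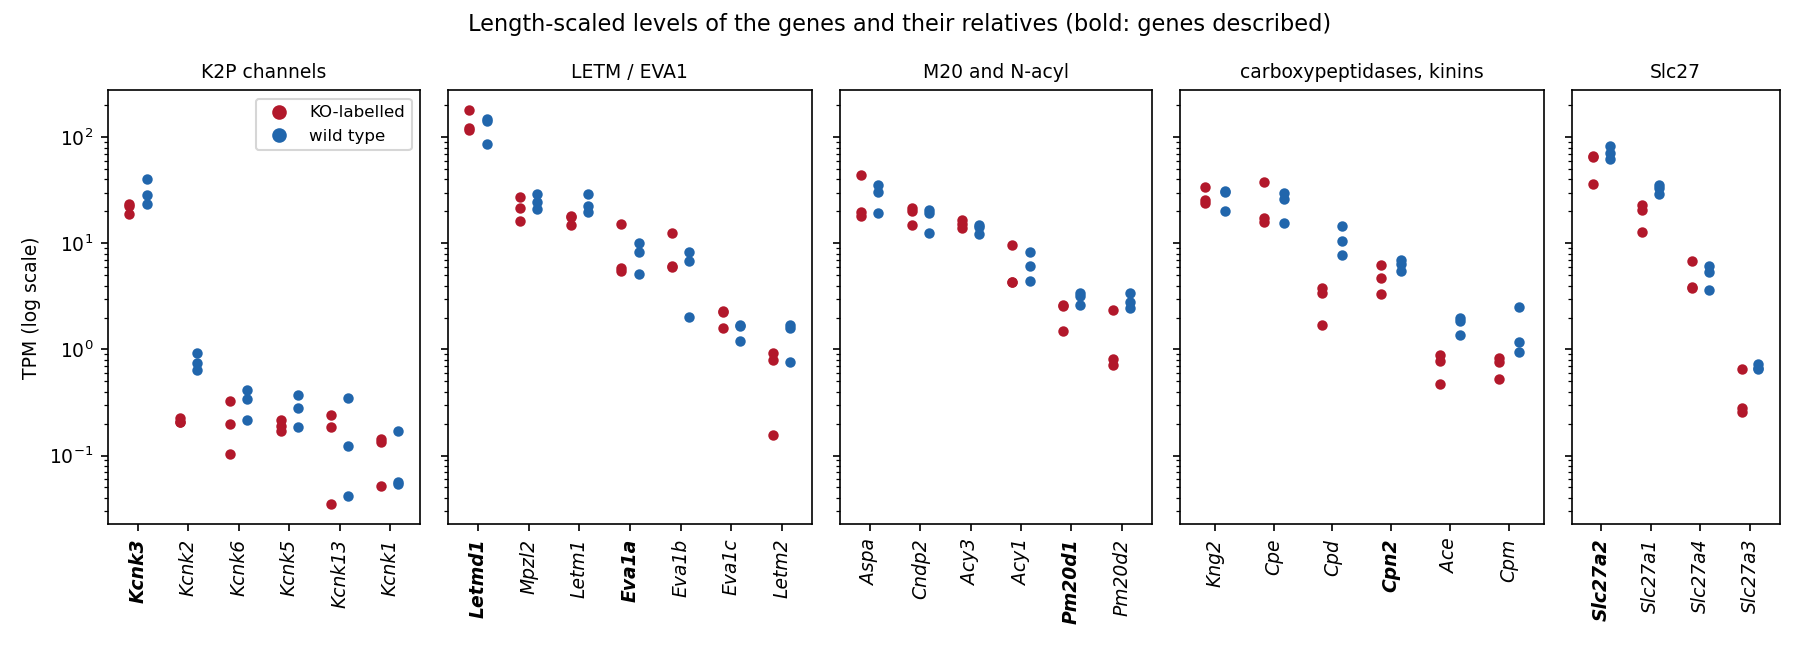
Length-scaled levels (TPM, log axis) of the genes and their relatives in each library, with knockout-labelled libraries left and wild-type libraries right. Genes with 0 counts in any library are not drawn. Kcnk3, Letmd1 and Slc27a2 stand above their relatives in every library, while Eva1a, Pm20d1 and Cpn2 lie among theirs.

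Kcnk3 supplied nearly all counts of its channel family. Of the 14 tandem-pore channel genes, 7 had 0 counts in every library. Kcnk3 made up 95.4%, 97.3% and 95.7% of the family's counts in knockout-labelled libraries and 96.1%, 93.5% and 95.1% in wild-type libraries. Per length, the shares were 94.8%, 96.8% and 95.1% against 95.7%, 92.6% and 94.8%. Apart from Kcnk3, 2 of the family were tested and neither passed. Kcnk2, a mechanically gated channel, had 5, 7 and 7 counts in knockout-labelled libraries, against 19, 21 and 26 in wild-type libraries (log2 fold change -1.45, edgeR adjusted p = 0.073).

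Otop1 was the otopetrin of these cells, since Otop2 and Otop3 had 0 counts in all 6 libraries, which allows up to 3 counts, or 0.211 to 0.284 CPM of the total, in a library. The ratio of Otop1 to Kcnk3 counts was 1.66, 1.52 and 1.59 in knockout-labelled libraries, against 1.03, 1.42 and 1.27 in wild-type libraries. The ratios did not overlap, with an exact two-sided permutation p of 0.1, the smallest that 3 against 3 libraries allow, and 0.450 after adjustment over the 9 ratios computed. These ratios were chosen after values had been seen, and 2 of the 9 did not overlap while 7 did.

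Among relatives of Letmd1 and Eva1a, 0 of 5 tested genes passed the threshold. Letm1, the mitochondrial cation exchanger that gives the domain its name, had 67.4 ± 18.6 CPM in knockout-labelled and 70.8 ± 13.8 CPM in wild-type libraries (log2 fold change -0.07). Per length it had 14.8, 18 and 17.7 TPM against 29.1, 19.8 and 22.5 TPM, well below Letmd1 in every library. Eva1b had a log2 fold change of 0.91 (edgeR adjusted p = 0.138) and Eva1c 0.84 (0.129). The ratio of Letmd1 to Ucp1 counts, at 0.0641, 0.0724 and 0.0766 in knockout-labelled libraries and 0.0857, 0.0718 and 0.0739 in wild-type libraries, overlapped (exact permutation p = 0.500).

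Slc27a2 was the most abundant of the 6 fatty acid transport proteins. It made up 67.2%, 68.2% and 65.0% of the family's counts in knockout-labelled libraries, against 63.2%, 60.8% and 62.7% in wild-type libraries. Slc27a1, the form of muscle and fat, had 43.8 ± 10.8 CPM in knockout-labelled and 59.9 ± 13.7 CPM in wild-type libraries (log2 fold change -0.45, edgeR adjusted p = 0.255). The ratio of Slc27a2 to Slc27a1 counts was 2.96, 2.63 and 2.59 in knockout-labelled libraries, against 2.13, 1.94 and 1.94 in wild-type libraries, without overlap (exact two-sided permutation p = 0.1, 0.450 adjusted over the 9 ratios). The ratio of Slc27a2 to Slc27a4 counts, at 7.06, 12.2 and 6.84 in knockout-labelled and 9.68, 8.38 and 14.3 in wild-type libraries, overlapped (exact permutation p = 0.5). Of the family, 4 genes were tested and 0 passed.

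The long-chain acyl-CoA synthetases also activate fatty acids. Among 4 tested, 2 genes fell and 0 rose, beside 7.52% and 1.63% of all tested genes. Acsl3 averaged 8.62 ± 2.80 CPM in knockout-labelled and 19.3 ± 5.21 CPM in wild-type libraries (log2 fold change -1.16, SE 0.32, edgeR adjusted p = 0.044). Acsl4 averaged 14.9 ± 8.96 and 39.1 ± 7.06 CPM (log2 fold change -1.39, SE 0.38, edgeR adjusted p = 0.045). Acsl1, the main form of fat cells, had 632 ± 256 CPM in knockout-labelled and 1325 ± 430 CPM in wild-type libraries (log2 fold change -1.07, edgeR adjusted p = 0.060), and Acsl5 had a log2 fold change of 0.14. With length and GC offsets, neither Acsl3 (-0.73 on the longest and -0.99 on the median transcript) nor Acsl4 (-0.61 and -0.37) passed.

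Among the enzymes related to Pm20d1, 0 of 5 other tested genes passed. Aspa, which splits N-acetylaspartate, had 80.4 ± 26.4 CPM in knockout-labelled and 65.3 ± 12.3 CPM in wild-type libraries. Cndp2, a dipeptidase, had 30.2 ± 7.14 and 20.8 ± 1.91 CPM (log2 fold change 0.53, edgeR adjusted p = 0.170). Pm20d2, the closest relative by name, had 1.29 ± 0.649 and 2.36 ± 0.394 CPM (log2 fold change -0.87, edgeR adjusted p = 0.184).

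Cpn2 was present without its catalytic partner, since Cpn1 had 0 counts in every library, with the same limit of 3 counts in each. Among the 5 other carboxypeptidase and kinin genes that were tested, 1 fell and 0 rose, beside 7.52% and 1.63% of all tested genes. Cpd, a carboxypeptidase of the secretory pathway, had 182, 281 and 117 counts in knockout-labelled libraries, against 971, 484 and 659 in wild-type libraries. It averaged 17 ± 5.61 and 49.0 ± 14.0 CPM (log2 fold change -1.52, SE 0.31, edgeR adjusted p = 0.019), and with offsets for length and GC it had -0.74 (adjusted p = 0.101) on the longest transcript and -1.56 (adjusted p = 0.049) on the median transcript. Kng2, a kininogen that brown fat secretes, had 46.8 ± 4.67 CPM in knockout-labelled and 34.7 ± 3.67 CPM in wild-type libraries (log2 fold change 0.43, edgeR adjusted p = 0.204). 

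Epsti1 belongs to a list of 27 interferon-stimulated genes, of which 23 were tested. There were 5 that fell and 0 that rose, beside 7.52% and 1.63% of all tested genes, with a median log2 fold change of -0.28. Ifit1, an antiviral RNA-binding protein, averaged 0.775 ± 0.506 CPM in knockout-labelled and 4.75 ± 2.19 CPM in wild-type libraries (log2 fold change -2.57, edgeR adjusted p = 0.019). Iigp1, an immunity-related GTPase, averaged 20.6 ± 6.61 and 52.1 ± 5.68 CPM (log2 fold change -1.34, edgeR adjusted p = 0.019). The others were Ifit2 (-2.05), Ifih1 (-1.54) and Rsad2 (-1.15). With offsets for length and GC, 0 of the 23 passed and the median was -0.18. Ifit1 then had -2.44 (edgeR adjusted p = 0.062), Ifit2 -1.63 (0.092), Iigp1 -0.90 (0.062), Ifih1 -0.83 (0.095) and Rsad2 -0.71 (0.094). These 5 had been picked as lower in the same counts. Of the 31 genes called over all family and marker lists, 0 changed sign with these offsets.

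Of the 23 other brown thermogenic genes that were tested, 1 rose and 4 fell, beside 1.63% and 7.52% of all tested genes, with a median log2 fold change of -0.03. Cox7a1, a subunit of cytochrome c oxidase, averaged 650 ± 102 CPM in knockout-labelled and 321 ± 117 CPM in wild-type libraries (log2 fold change 1.02, edgeR adjusted p = 0.045). Those that fell were Dio2, which makes active thyroid hormone (-2.08), Ppargc1a, a coactivator of mitochondrial genes (-1.07), and the transcription factors Ebf2 (-0.98) and Esrrg (-1.73). With offsets, 0 of these genes passed, and the values were 0.30 for Cox7a1, -1.32 for Dio2, -0.17 for Ppargc1a, -0.41 for Ebf2 and -1.05 for Esrrg. Of the 31 genes called over all family and marker lists, 0 passed without wild-type library 1 and 0 without knockout-labelled library 3, while 9 passed without knockout-labelled library 2 and 8 without wild-type library 3. The summed level of the brown genes other than the 8 was 8546 to 10393 CPM in knockout-labelled libraries, against 5216 to 7843 CPM in wild-type libraries (exact permutation p = 0.1). Without Ucp1 it was 4729 to 5520 CPM against 2799 to 4555 CPM, also without overlap. The largest parts of that sum were Cidea (mean 2154 against 1560 CPM), Cox8b (1477 against 780) and Cox7a1 (650 against 321). With offsets their log2 fold changes were -0.14, 0.18 and 0.30 on the longest transcript and 0.16, 0.39 and 0.55 on the median transcript. The sum thus follows a few abundant genes, whereas the median over the list was -0.03.

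The makeup of the libraries is given beside these values by summed markers. General adipocyte markers, of which 0 of 12 passed, summed to 20863 to 31148 CPM in knockout-labelled and 22987 to 29208 CPM in wild-type libraries, and so overlapped. White adipocyte markers, with 3 of 9 tested called lower and 0 higher, summed to 235 to 360 CPM against 420 to 557 CPM, with Hoxc10 and Tcf21 at 0 in every library. Macrophage and leukocyte markers, with 1 called higher (Lyz2) and 1 lower (Cd163) of 10, summed to 238 to 517 CPM against 120 to 220 CPM. Without Lyz2 they overlapped, at 41.3 to 73.5 CPM against 52.0 to 59.4 CPM. Stromal markers, with Cd34 and Ly6a called higher and Postn lower of 11, summed to 1238 to 1599 CPM against 1101 to 1205 CPM. Without Ly6a they overlapped, at 1001 to 1197 CPM against 944 to 1104 CPM. The 3 full sums did not overlap between the groups (exact permutation p = 0.1 each).

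Mural markers had 3 genes called higher, the contractile genes Acta2 (log2 fold change 0.99), Tagln (1.02) and Myl9 (1.04), and 1 lower, Abcc9 (-1.17), of 11. Their sum was 578 to 1037 CPM in knockout-labelled and 940 to 1397 CPM in wild-type libraries, and without the pericyte gene Rgs5 it was 310 to 423 CPM against 226 to 252 CPM, without overlap and in the other direction. Erythroid markers had Hba-a1 and Alas2 called higher of 5 and summed to 1210 to 3505 CPM against 366 to 1378 CPM. Endothelial markers had Flt1 and Tek called lower of 12 and summed to 710 to 876 CPM against 598 to 769 CPM. Skeletal muscle markers had Mybpc2 called lower of 8 tested and summed to 30.2 to 94.3 CPM in knockout-labelled and 32.3 to 1068 CPM in wild-type libraries, with the highest sum in wild-type library 3. With offsets for length and GC, 0 genes of these marker lists passed on the longest transcript. On the median transcript the white adipocyte markers Lep (log2 fold change -1.46, edgeR adjusted p = 0.049) and Slc7a10 (-1.72, 0.046) were still called lower. The same held for Mybpc2 (-4.07, 0.049), while Cd34 (1.55, 0.046) and Ly6a (1.26, 0.049) were still called higher. The part of these cells in the levels of the 8 genes was not tested.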

How the data were processed

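The 6 RNA libraries came from mature brown fat, and the labels gave their groups and numbers. The authors deposited raw counts of reads per Ensembl gene, 1 file per library. The submitters' processing notes name STAR 2.5.4b and mm9. For the counting program, its strand setting and the annotation, nothing is given in the sources used here. Symbols and lengths came from GENCODE release M21 by Ensembl identifier, and 32897 of 37620 matched both (the rest held 0.178% of counts). Counts were tested in R 4.3.3 with edgeR 4.0.16 (filterByExpr with minimum count 10 and total 15, TMM scaling, robust quasi-likelihood F test, two-sided, Benjamini-Hochberg over 12068 genes, threshold 0.05). Offsets for length and GC were smooth terms of basis size 6 (mgcv 1.9.3) fitted to log2 ratios with prior count 2. DESeq2 1.42.0, limma-voom (limma 3.58.1), other scalings and filters, a replicate block and leaving out each library were alternatives, and the class of mitochondrial share above or below 50% and marker sums without 1 gene were added after seeing the data. CPM and TPM were computed here from the counts. Intervals cover 95% and count floors cover counting error only. The genes and lists were chosen with earlier results of these data known. Named genes are the 8, Phospho1, of each list those past the threshold and up to 4 of those with the highest CPM, and the 2 nearest in pattern. Eva1b, Eva1c, Pm20d2, Ttr, Cyp3a11, Tat, Alb, Apoa2, Cpn1, Hoxc10 and Tcf21 were named after their values were seen, where the rule did not name them. The scripts were tested on simulated counts.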

Additional observations from a re-analysis of the deposited data

How the results depend on the processing

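Over 21 alternatives for each of the 7 tested genes, 0 of 147 results passed the threshold. Kcnk3, Cpn2, Pm20d1 and Slc27a2, whose log2 fold changes were near 0, changed sign in 22 results, and Otop1, Letmd1 and Eva1a in none. Outside the leave-one-out fits, Cpn2 had -0.24 with total counts only, -0.00 with no filter, -0.03 with limma-voom, -0.03 with the replicate block and -0.31 with the class of mitochondrial share. Pm20d1 had 0.05 with upper-quartile scaling, 0.58 with length and GC offsets, 0.03 with the median transcript and 0.51 with offsets and the replicate block. Slc27a2 had 0.00 with RLE and 0.04 with upper-quartile scaling. Leaving out 1 library gave -0.27 to 0.02 for Kcnk3, -0.21 to 0.34 for Cpn2, -0.30 to 0.30 for Pm20d1, -0.21 to 0.14 for Slc27a2, 0.43 to 0.66 for Letmd1, 0.19 to 0.43 for Otop1 and 0.13 to 0.71 for Eva1a (0.13 without knockout-labelled library 1). Of the 8 genes, 4 had the higher mean CPM in knockout-labelled libraries, and with 1 library left out 3 to 7 had it (7 without knockout-labelled library 1 and 7 without wild-type library 3).

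Of all genes, edgeR called 197 higher and 908 lower. With total counts only there were 29 and 1389, and the median over all genes was a log2 fold change of -0.23 in place of 0.03. DESeq2 called 493 higher and 1349 lower. Length and GC offsets gave 1 and 0 (2785 genes at an unadjusted p under 0.05), the median transcript 83 and 142, and offsets with the replicate block 0 and 0. The class of mitochondrial share gave 1057 and 1718. An adjusted p under 0.01 left 1 and 0. Leaving out 1 library gave 0 to 688 higher and 0 to 1383 lower, with 2 higher and 0 lower without knockout-labelled library 3, and 0 in either direction without wild-type library 1. In the family lists, 0 genes were called higher and 8 lower. The class of share gave 4 higher and 13 lower, the offsets 0 lower, 1 lower with the median transcript and 0 with offsets and block, an adjusted p under 0.01 gave 0, and leaving out 1 library gave 0 to 10.

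The replicate block gave 223 higher and 976 lower genes and 0 of the 7. Same-numbered libraries deviated with correlations of 0.14, -0.53 and 0.03, and the labels state no pairing, so the libraries share only a number. Epsti1 had the fewest counts and was not tested. The cause of these movements was not tested.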
